A study of Homo sapiens with 4 samples.

Results

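Cyclins are regulatory proteins that bind cyclin-dependent kinases (CDKs), which have little activity alone, and the pair phosphorylates its substrates. Cell-cycle cyclins are made and destroyed in phases: D-type cyclins with CDK4 and CDK6 act in G1, cyclins E and A with CDK2 act at S phase, and cyclins A and B with CDK1 drive mitosis. A separate branch of the family phosphorylates RNA polymerase II or serves the Mediator complex and is not tied to a cell-cycle phase. In fibroblasts that have stopped dividing, including senescent ones, CDK inhibitors hold the cell-cycle branch in check, and genes of its S-phase and mitotic members are repressed by RB-family proteins.

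The 36 members described here are cyclin and CDK genes taken by gene symbol, out of 58735 genes in the deposited table. They were divided by known role into 14 cell-cycle members, 13 transcriptional members and 9 others. The study deleted or depleted calumenin, which binds calcium in the secretory pathway and is encoded by CALU, in fibroblasts to look at senescence and fibrosis signalling. RNA came from HFL1, a human fetal lung fibroblast line, as 2 libraries labelled WT and 2 labelled KO. The sources used here do not give how CALU was targeted, whether the KO cells were 1 clone, the time in culture, or whether the 2 libraries of a label were separate cultures. The p-values therefore set the difference between KO and WT only against the spread of these libraries, and that spread may be technical.

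CALU (ENSG00000128595, GRCh38 chr7:128739292-128771807, + strand), the check of the labels, was at 87.7 and 81.8 FPKM in the WT libraries and at 6.59 and 5.95 FPKM in the KO libraries. FPKM is a read count scaled by gene length and by the size of the library. The KO libraries thus kept CALU RNA at a level 13.5-fold lower than WT (log2 change -3.56, SE 0.14, limma adjusted p = 0.00154). Reads recovered from the FPKM values numbered 16173899 to 17715774 per library. The cells went against their label in part: of 13 fibroblast markers, 8 were below 1 FPKM in every library, COL1A2 and POSTN had 0 reads, and PDGFRA was at most 0.186 FPKM. The summed level of that list was 1023 and 1412 FPKM in WT and 567 and 820 FPKM in KO. Most of that sum was S100A4, at 933 and 1352 FPKM in WT and at 449 and 723 FPKM in KO (not called, limma adjusted p = 0.0789). VIM was at 76.5 and 46.8 FPKM in WT and at 106 and 84.6 FPKM in KO (not called, limma adjusted p = 0.136). COL1A1 rose from 0.234 and 0.280 FPKM to 3.04 and 3.16 FPKM (limma adjusted p = 0.00410), but reached 1 FPKM only in its KO libraries. TWIST2 fell from 11.6 and 10.5 FPKM to 6.60 and 7.08 FPKM (limma adjusted p = 0.0270). Of the 5 tested genes of the list, 1 was thus called higher and 1 lower, where 12.1% of all genes tested were called higher and 11.1% lower. Of 9 epithelial markers, 2 were below 1 FPKM in every library, and the list summed to 995 and 1134 FPKM in WT and 1883 and 2251 FPKM in KO, led by KRT8 at 349 to 926 FPKM. Of its 7 tested genes 4 rose, among them CDH1 (5.01-fold), and CLDN4 fell (5.12-fold), against the same shares of all genes tested. All 5 endothelial markers and 4 of 5 leukocyte markers were below 1 FPKM in every library. The fifth, CD14, fell from 19.4 and 16.9 FPKM to 5.84 and 6.41 FPKM (limma adjusted p = 0.00457). These marker levels moved with the groups, and their part in the results on cyclins and CDKs was not tested.

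Most of the tested cell-cycle members rose in KO, CCND1 fell, and none of the transcriptional members passed the test. Of the 14 cell-cycle members, 11 passed the filter on low values (at least 1 FPKM in at least 2 libraries), and of these 8 rose, 1 fell and 2 were not called at a limma adjusted p under 0.05. Over all 14100 genes tested, 12.1% rose and 11.1% fell. Of the 13 transcriptional members, which all passed the filter, 0 rose and 0 fell. At an unadjusted p under 0.05, 9 of the 11 cell-cycle members and 0 of the 13 transcriptional ones passed, against 38.9% of all genes tested. Limma voom on the recovered reads gave the same counts, 8 up and 1 down for cell-cycle members and 0 and 0 for transcriptional ones, where 29.1% of all genes were called. The median log2 change, on the log2(FPKM + 1) scale, was 1.41 for the tested cell-cycle members, 0.13 for the transcriptional members and -0.27 for the 8 tested others. The median over all genes tested was 0.03. With the 3 untested cell-cycle members included, the median of that group was 0.86. With no filter on low values, CCNB1 alone of the 12 called members of the 3 groups stayed called, and the other 11 had limma adjusted p of 0.0505 to 0.0946. Members are not replicates of each other, so the contrast between the groups is a description and carries no test.

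**Figure D1:**
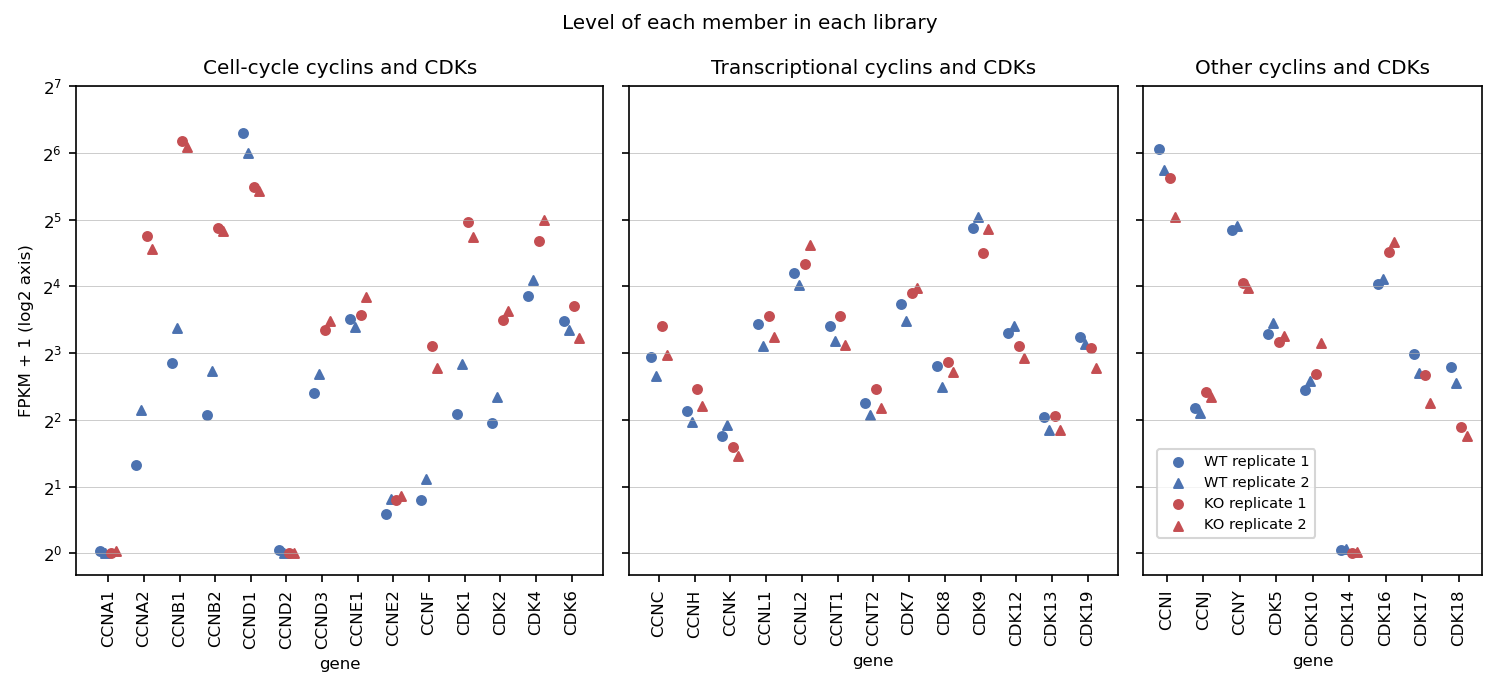
FPKM + 1 of each of the 36 members (log2 vertical axis), by group; circles are replicate 1 and triangles replicate 2, blue for WT and red for KO. In the first panel the red points of CCNA2, CCNB1, CCNB2, CCNF, CDK1 and CDK2 lie well above the blue ones, while in the second the colours lie close together or overlap.

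The summed FPKM of each group gave the same picture by library. Cell-cycle members summed to 134.1 and 133.6 FPKM in the WT libraries and to 275 and 265 FPKM in the KO libraries, 2.02-fold apart. Transcriptional members summed to 119.96 and 111.7 FPKM in WT and to 121 and 119 FPKM in KO, a ratio of 1.04. The others summed to 138 and 127 FPKM in WT and to 111 and 97.7 FPKM in KO. As a share of the FPKM of all members, the cell-cycle branch went from 34.2% and 35.9% in WT to 54.2% and 55.0% in KO. With 2 libraries a group, the smallest two-sided p that exact permutation allows is 0.333, which is the p of the cell-cycle sum. The exact permutation p of the transcriptional sum was 0.667.

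The order of the members by mean FPKM changed as well. CCNB1 was the 16th most abundant member in WT and the 1st in KO. CDK1 moved from rank 23 to 4, CCNB2 from 24 to 5 and CCNA2 from 31 to 8. CCND1, first in WT, was second in KO, and CCNI went from 2 to 3. CDK9 went from rank 3 to 7 and CCNY from 4 to 11.

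The mitotic members moved most. Their promoters are shown first, because promoters of mitotic genes are known for short sequences near the start site. One is the cell cycle genes homology region (CHR), known to be bound by repressor complexes. The others, spaced upstream of it, are CCAAT boxes, the sites of the NF-Y factor. The strings searched on both strands were TTTGAA and its variant TTTAAA for the CHR, CCAAT for the NF-Y box, and for E2F the string TTGGCGC with the variants TTCGCGC and TTCCCGC and the variant TTGCCGC. RefSeq windows from 250 bases before to 50 after each start (GRCh38.p14) matched 32 of the 36 members, and CDK2, CCND1, CCND2 and CCNE2 had none. Stretches upstream of the annotated exons are given below, 5′ to 3′ on the strand of the gene, with matches to any of these strings in capitals. They are CCNF (chr16:2429197-2429393, + strand), CCNB2 (chr15:59104896-59105077, + strand), CCNA2 (chr4:121823934-121824133, - strand) and CDK1 (chr10:60778081-60778330, + strand). CDK19 (chr6:110815959-110816105, - strand) is set beside them because its window, alone among those of the transcriptional members, holds at least 2 CCAAT and a CHR string, with an E2F string besides.
CCNF upstream: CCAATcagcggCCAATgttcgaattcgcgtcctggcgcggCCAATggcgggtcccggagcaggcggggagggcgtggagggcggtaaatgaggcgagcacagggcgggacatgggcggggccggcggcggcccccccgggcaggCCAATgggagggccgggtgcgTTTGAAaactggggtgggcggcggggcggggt
CCNB2 upstream: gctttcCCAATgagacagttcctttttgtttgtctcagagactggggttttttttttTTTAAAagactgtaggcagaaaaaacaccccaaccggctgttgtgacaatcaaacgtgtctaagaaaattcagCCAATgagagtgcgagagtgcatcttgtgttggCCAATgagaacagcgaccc
CCNA2 upstream: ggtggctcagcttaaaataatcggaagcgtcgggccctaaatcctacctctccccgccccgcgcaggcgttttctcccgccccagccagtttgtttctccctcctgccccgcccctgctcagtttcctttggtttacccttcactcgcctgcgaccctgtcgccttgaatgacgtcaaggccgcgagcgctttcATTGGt
CDK1 upstream: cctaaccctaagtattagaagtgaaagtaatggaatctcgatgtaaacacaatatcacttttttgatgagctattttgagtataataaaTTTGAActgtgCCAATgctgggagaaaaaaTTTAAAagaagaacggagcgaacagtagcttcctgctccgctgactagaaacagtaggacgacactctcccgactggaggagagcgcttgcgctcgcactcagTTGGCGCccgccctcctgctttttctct
CDK19 upstream: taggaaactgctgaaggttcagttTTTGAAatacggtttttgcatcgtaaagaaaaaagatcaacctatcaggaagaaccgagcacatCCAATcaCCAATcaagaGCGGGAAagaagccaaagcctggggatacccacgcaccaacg

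In these stretches CCNF carried 4 CCAAT strings ahead of a TTTGAA, and CCNB2 carried 3 CCAAT and a TTTAAA. CDK1 carried a CCAAT between a TTTGAA and a TTTAAA, and an E2F string. CCNA2 carried a single CCAAT, read on the other strand as ATTGG. Its window held neither TTTGAA nor TTTAAA on either strand, and other forms of the CHR were not searched. Also close before the start, but not printed, were a TTTAAA of CCNE1 (position -28) and one in the second CCNT1 window (position -4). For CCNB1, CCNB2, CCNF and CDK1, the nearest CHR matches before the start are given with 8 bases on each side, the CHR in capitals. They are CCNB1 (chr5:69167112-69167133), CCNB2 (chr15:59105109-59105130), CCNF (chr16:2429354-2429375) and a pair from the second CDK1 window (chr10:60778401-60778422 and chr10:60778457-60778478), all on the + strand.
CCNB1 site: gtgcggggTTTAAAtctgaggc
CCNB2 site: acgcggtaTTTGAAtcctggaa
CCNF site: cgggtgcgTTTGAAaactgggg
CDK1 site: ttggctgcTTTGAAagtctacg
CDK1 site: gcggtgagTTTGAAactgctcg

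A window with at least 2 CCAAT and a CHR string was found for CCNB1, CCNB2, CCNF and CDK1 among the 10 cell-cycle members with a window, for CDK19 among 13 transcriptional members and for CDK16 among 9 others. Of all 27305 genes with a window, 3.34% had such a window. The combination counts the strings in any order and was not part of the planned search, which was for single strings. In the CDK16 window the CHR string lay after the start, at position 31. Single strings were common: a CHR string was in a window of 27.9% of all genes, CCAAT of 39.7% and an E2F string of 15.3%. By member group, the CHR string was present for 5 of 10 cell-cycle, 5 of 13 transcriptional and 2 of 9 other members. In the same order, CCAAT was present for 6, 6 and 3 members and an E2F string for 2, 2 and 2. A string match describes the letters in the window and is not evidence of a bound site.

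**Figure D2:**
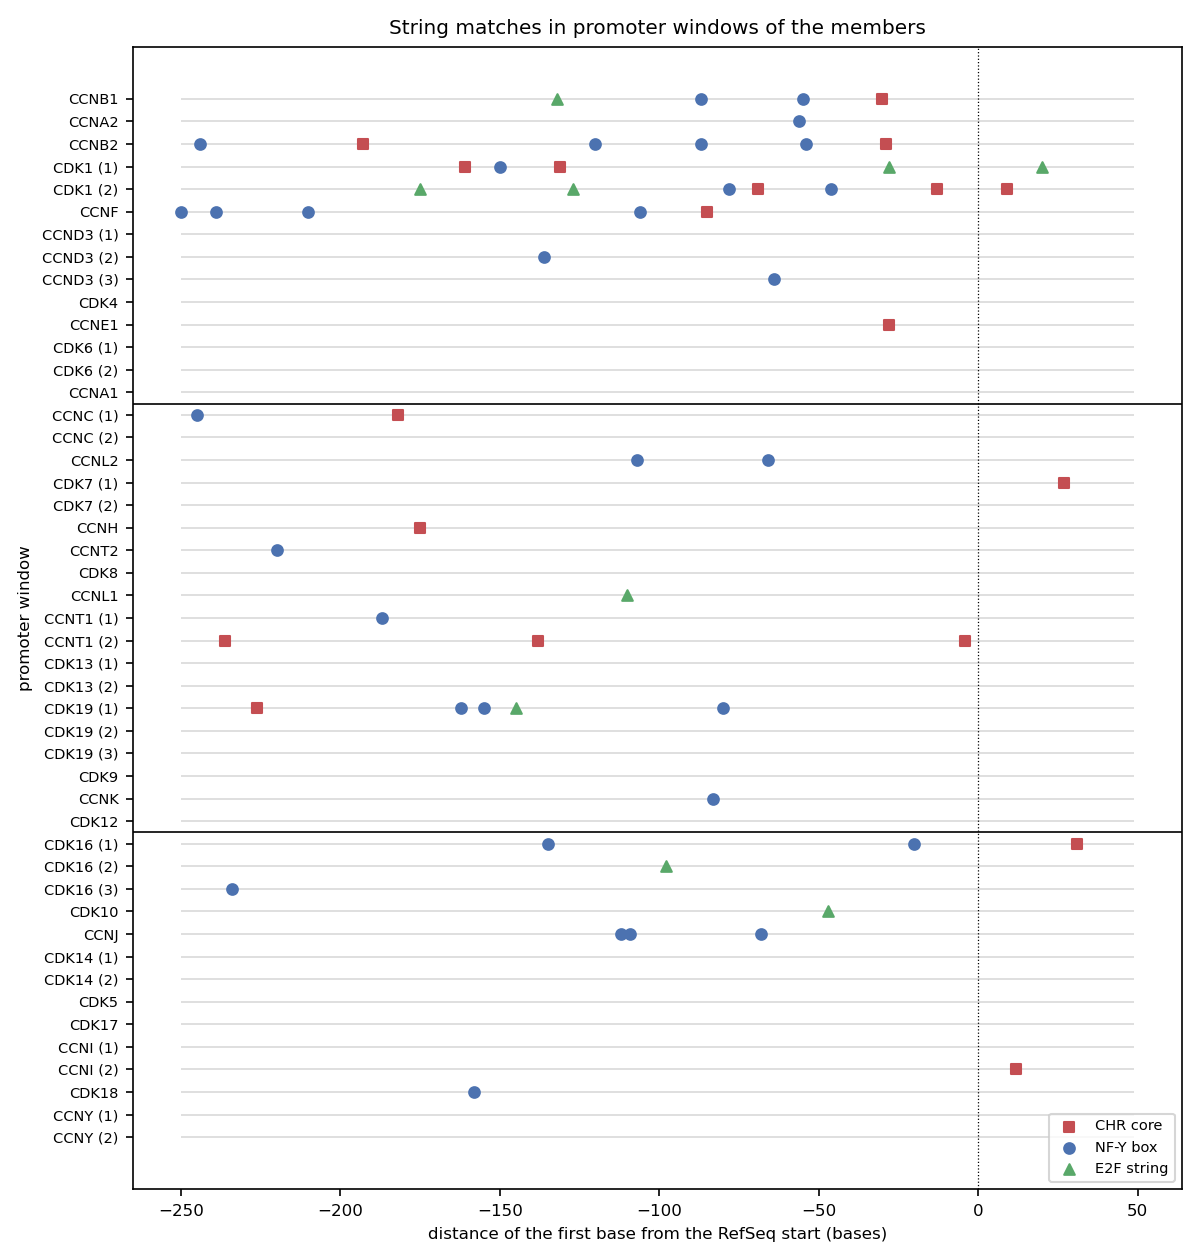
Position of each string match (first base, in bases from the RefSeq start) in the promoter windows of the members, with cell-cycle members at the top, transcriptional members in the middle and others at the bottom; squares are CHR strings, circles CCAAT (the NF-Y box) and triangles E2F strings. CCNB1, CCNB2, CCNF and both CDK1 windows combine circles and squares, as do the first windows of CCNC, CDK19 and CDK16 in the lower panels, and most windows have few or no matches.

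Cyclin B1 and cyclin B2, from CCNB1 and CCNB2, are the activators of CDK1 at entry to mitosis. CCNB1 (ENSG00000134057, chr5:69167010-69178245) was at 6.21 and 9.33 FPKM in WT and at 71.5 and 66.9 FPKM in KO. Both KO libraries were far above both WT libraries, as were the reads behind them, 290 and 391 against 3202 and 2806. The means were 7.77 ± 2.20 and 69.2 ± 3.20 FPKM (SD, n = 2 per group), 8.91-fold higher in KO (log2 change 3.02, SE 0.20, limma adjusted p = 0.00286). CCNB2 (ENSG00000157456, chr15:59105078-59125045) was at 3.19 and 5.62 FPKM in WT and at 28.4 and 27.4 FPKM in KO. Its mean was 6.34-fold higher in KO (log2 change 2.46, SE 0.23, limma adjusted p = 0.00433). In bulk RNA, fewer cells in a phase and less RNA per cell cannot be told apart, so these values do not say whether more KO cells were in G2 and mitosis or each held more cyclin RNA.

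Cyclin A2 acts with CDK2 in S phase and with CDK1 later. CCNA2 (ENSG00000145386, chr4:121816444-121823933) was at 1.51 and 3.42 FPKM in WT and at 26.1 and 22.5 FPKM in KO. The WT libraries differed 2.27-fold from each other, yet both lay well under the KO libraries. The KO mean, 24.3 ± 2.49 FPKM, was 9.85-fold above the WT mean of 2.47 ± 1.35 FPKM (log2 change 2.92, SE 0.28, limma adjusted p = 0.00436). Because of that spread the fold was 7.10 without WT replicate 1 and 16.1 without WT replicate 2. The gene shares 9.08% of its exonic bases with EXOSC9 on the opposite strand, and the sources used here do not give the strand setting of the counting. EXOSC9 was at 1.94 and 2.03 FPKM in WT and at 7.26 and 5.84 FPKM in KO.

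CDK1, the kinase of mitotic entry (ENSG00000170312, chr10:60778331-60794852), was at 3.23 and 6.11 FPKM in WT and at 30.2 and 25.8 FPKM in KO. Its mean rose 5.99-fold, from 4.67 ± 2.04 to 28.0 ± 3.15 FPKM (log2 change 2.40, SE 0.27, limma adjusted p = 0.00559). The kinase and its 3 main partners therefore rose together, and the summed level of CCNA2, CCNB1 and CCNB2 went from 10.9 and 18.4 FPKM to 126 and 117 FPKM. CCNF, whose product is the substrate receptor of a ubiquitin ligase and binds no CDK, was at 0.738 and 1.17 FPKM in WT and at 7.65 and 5.85 FPKM in KO (ENSG00000162063, chr16:2429394-2458854). That is 7.07-fold higher (log2 change 1.99, SE 0.19, limma adjusted p = 0.00436). CCNF reached 1 FPKM in only 1 of the WT libraries, so it passed the filter with the help of its KO libraries.

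All 5 of these genes were also higher in WT replicate 2 than in WT replicate 1. The ratio was 2.27 for CCNA2, 1.89 for CDK1, 1.76 for CCNB2, 1.59 for CCNF and 1.50 for CCNB1. That gap is small beside the one between groups, and each of the 5 calls held when any 1 library was left out. CCNA1, the germline cyclin A, had 2 reads over the 4 libraries, at or under the floor of 3 reads.

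CDK2, the kinase of S-phase entry (ENSG00000123374, chr12:55966769-55972784), was at 2.88 and 4.07 FPKM in WT and at 10.2 and 11.3 FPKM in KO. It rose 3.10-fold, less than CDK1 (log2 change 1.41, SE 0.17, limma adjusted p = 0.00695). The ratio of CDK1 to CDK2 was 1.12 and 1.50 in WT and 2.95 and 2.28 in KO. CCNE1, the cyclin that activates CDK2 at the start of S phase (ENSG00000105173, chr19:29811898-29824308), was at 10.4 and 9.45 FPKM in WT and at 10.9 and 13.4 FPKM in KO. Its log2 change of 0.26 did not pass the test (95% interval -0.12 to 0.64, limma adjusted p = 0.260), though the libraries did not overlap. CCNE1 was thus more abundant than CCNA2, CCNB1 and CCNB2 in both WT libraries and less abundant than all of them in both KO libraries.

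CCNE2, the paralog of CCNE1, stayed below the filter at 0.498 and 0.763 FPKM in WT and at 0.740 and 0.819 FPKM in KO, with 40 to 59 reads per library. Its libraries overlapped between groups. It shares 37.1% of its exonic bases with INTS8 on the opposite strand, which was at 4.27 and 3.095 FPKM in WT and at 9.10 and 7.04 FPKM in KO. CCNE1 and CCNE2 together summed to 10.9 and 10.2 FPKM in WT and to 11.6 and 14.2 FPKM in KO.

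The D-type cyclins, which link growth signals to CDK4 and CDK6, divided by direction. CCND1 (ENSG00000110092, chr11:69641087-69654474) was at 77.4 and 63.0 FPKM in WT and at 43.9 and 41.8 FPKM in KO. It was the cell-cycle member that fell, 1.64-fold lower in KO (log2 change -0.69, SE 0.16, limma adjusted p = 0.0340). CCND3 (ENSG00000112576, chr6:41934933-42050357) was at 4.30 and 5.45 FPKM in WT and at 9.12 and 10.2 FPKM in KO. It rose 1.98-fold (log2 change 0.86, SE 0.16, limma adjusted p = 0.0174). CCND2 had 4 reads, all in WT replicate 1.

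CCND1 still made up most of the D-type RNA in KO. Its share of summed D-type FPKM was 94.7% and 92.0% in WT and 82.8% and 80.5% in KO. The sum itself was 81.7 and 68.5 FPKM in WT and 53.0 and 52.0 FPKM in KO, so the rise of CCND3 was smaller in FPKM than the fall of CCND1. Set against the mitotic branch, CCNB1 was 0.0803 and 0.148 of the CCND1 level in WT and 1.63 and 1.60 times it in KO. The exact permutation p of each of these quantities was 0.333, the smallest possible.

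CDK4 and CDK6, the partners of the D-type cyclins, also behaved differently. CDK4 (ENSG00000135446, chr12:57747727-57756013) was at 13.5 and 16.0 FPKM in WT and at 24.5 and 30.7 FPKM in KO, 1.87-fold higher (log2 change 0.85, SE 0.17, limma adjusted p = 0.0234). CDK6 (ENSG00000105810, chr7:92604921-92836594) was at 10.2 and 9.17 FPKM in WT and at 12.0 and 8.38 FPKM in KO. Its libraries overlapped, and its log2 change was 0.05 (95% interval -0.43 to 0.53, limma adjusted p = 0.879). The ratio of CDK4 to CDK6 was 1.32 and 1.75 in WT and 2.04 and 3.67 in KO. CDK4 shares 43.2% of its exonic bases with TSPAN31 on the opposite strand, which was at 9.48 and 7.49 FPKM in WT and at 5.25 and 4.70 FPKM in KO.

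Each of these G1 calls was lost when some single library was left out. CCND1 missed the threshold when any 1 library was left out (limma adjusted p 0.0681 to 0.255). CCND3 missed it without WT replicate 1 (0.133) or WT replicate 2 (0.0526). CDK4 missed it without WT replicate 1 (0.156), WT replicate 2 (0.0765) or KO replicate 2 (0.0523).

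**Figure D3:**
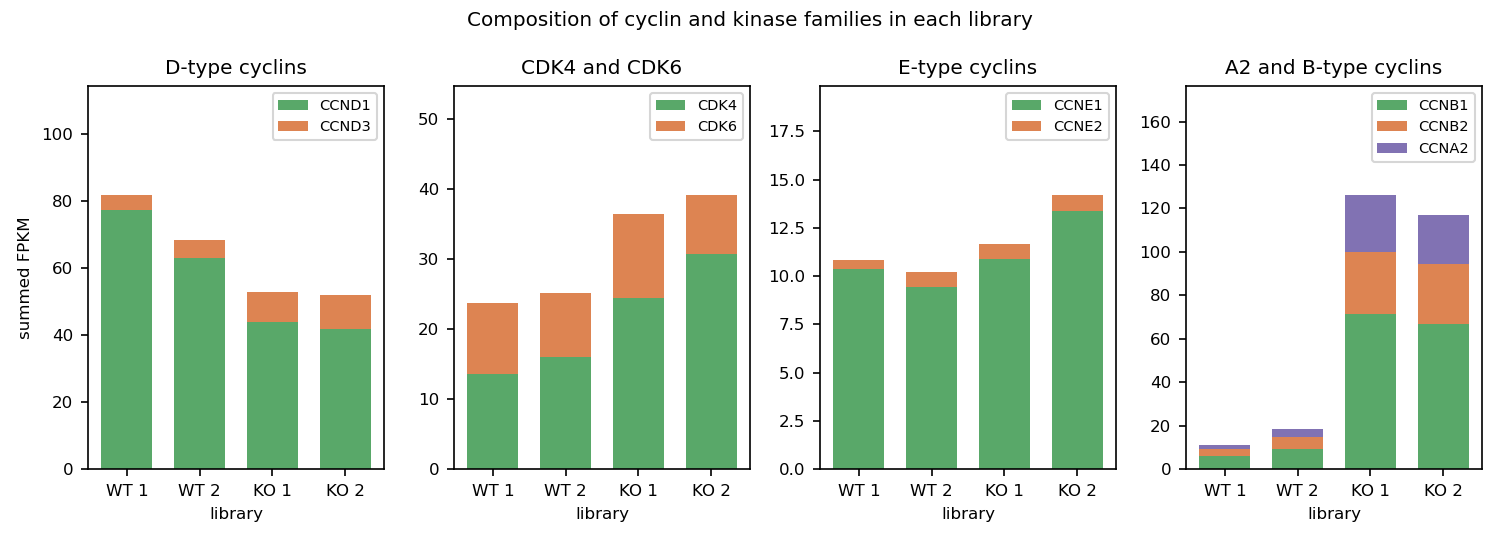
Stacked FPKM of the D-type cyclins (CCND2 is left out), CDK4 and CDK6, the E-type cyclins, and CCNA2 with the B-type cyclins, 1 bar per library; the vertical scales start at 0 and differ between panels. The D-type bars are lower in KO with a larger CCND3 part, and the CCNA2, CCNB1 and CCNB2 bars go from 10.9 and 18.4 FPKM in WT to 126 and 117 FPKM in KO.

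The transcriptional members were close to WT in level. Their log2 changes ranged from -0.34 to 0.39, and their limma adjusted p from 0.137 to 0.974. The median absolute log2 change was 0.27, against 0.33 over all genes tested. The 95% intervals together reached from -0.71 to 0.88, and each included no change. A change inside the interval of a member is therefore not excluded for that member at 2 libraries per group. Of the 13, 4 had both KO libraries above both WT libraries, 4 had both below, and 5 overlapped. Among all genes tested, 34.4% lay wholly above and 31.3% wholly below.

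CDK9 is the kinase of P-TEFb, which releases paused RNA polymerase II, and CCNT1 and CCNT2 are its cyclins. CDK9, the most abundant transcriptional member, was at 28.4 and 31.8 FPKM in WT and at 21.7 and 28.1 FPKM in KO (log2 change -0.27, limma adjusted p = 0.301). CCNT1 was at 9.55 and 8.08 FPKM in WT and at 10.7 and 7.68 FPKM in KO. CCNT2 was at 3.76 and 3.18 FPKM in WT and at 4.52 and 3.54 FPKM in KO. Both cyclins overlapped between groups, and the ratio of CDK9 to CCNT1 was 2.98 and 3.94 in WT and 2.02 and 3.66 in KO (exact permutation p = 0.667).

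CDK7 and CCNH are the kinase and cyclin of TFIIH, and the same complex activates CDK1 and CDK2 by phosphorylating their T-loop. CDK7 was at 12.3 and 10.1 FPKM in WT and at 13.9 and 14.7 FPKM in KO, with a log2 change of 0.33 (95% interval -0.04 to 0.70, limma adjusted p = 0.165). CCNH was at 3.38 and 2.90 FPKM in WT and at 4.50 and 3.61 FPKM in KO (log2 change 0.28, limma adjusted p = 0.243). Neither gene overlapped between groups and neither passed the test. The ratio of CDK7 to CCNH was 3.64 and 3.49 in WT and 3.10 and 4.07 in KO.

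CDK8 and CDK19 are alternative kinases of the Mediator kinase module, with CCNC as their cyclin. CDK8 was at 5.98 and 4.64 FPKM in WT and at 6.26 and 5.59 FPKM in KO. CDK19 was at 8.42 and 7.83 FPKM in WT and at 7.47 and 5.84 FPKM in KO (log2 change -0.26, limma adjusted p = 0.276). CCNC had the largest positive log2 change of the transcriptional members, 0.39, from 6.71 and 5.30 FPKM to 9.58 and 6.84 FPKM (limma adjusted p = 0.214). The ratio of CDK8 to CDK19 was 0.710 and 0.592 in WT and 0.838 and 0.957 in KO (exact permutation p = 0.333).

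CDK12 and CDK13, with CCNK, serve transcription elongation, and CDK12 is known for sustaining the expression of DNA repair genes. CDK12 was at 8.86 and 9.60 FPKM in WT and at 7.61 and 6.62 FPKM in KO, the lowest log2 change of the branch at -0.34 (limma adjusted p = 0.137). CDK13 was at 3.10 and 2.61 FPKM in WT and at 3.17 and 2.60 FPKM in KO, a log2 change of 0.01. CCNK was at 2.37 and 2.81 FPKM in WT and at 2.01 and 1.75 FPKM in KO (log2 change -0.32, limma adjusted p = 0.189). It shares 59.5% of its exonic bases with CCDC85C on the opposite strand.

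CCNL1 and CCNL2 encode the L-type cyclins, which pair with the CDK11 kinases in splicing. CCNL1 was at 9.77 and 7.60 FPKM in WT and at 10.7 and 8.49 FPKM in KO, and these overlapped. CCNL2 was at 17.3 and 15.1 FPKM in WT and at 19.1 and 23.7 FPKM in KO (log2 change 0.37, limma adjusted p = 0.157).

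**Figure D4:**
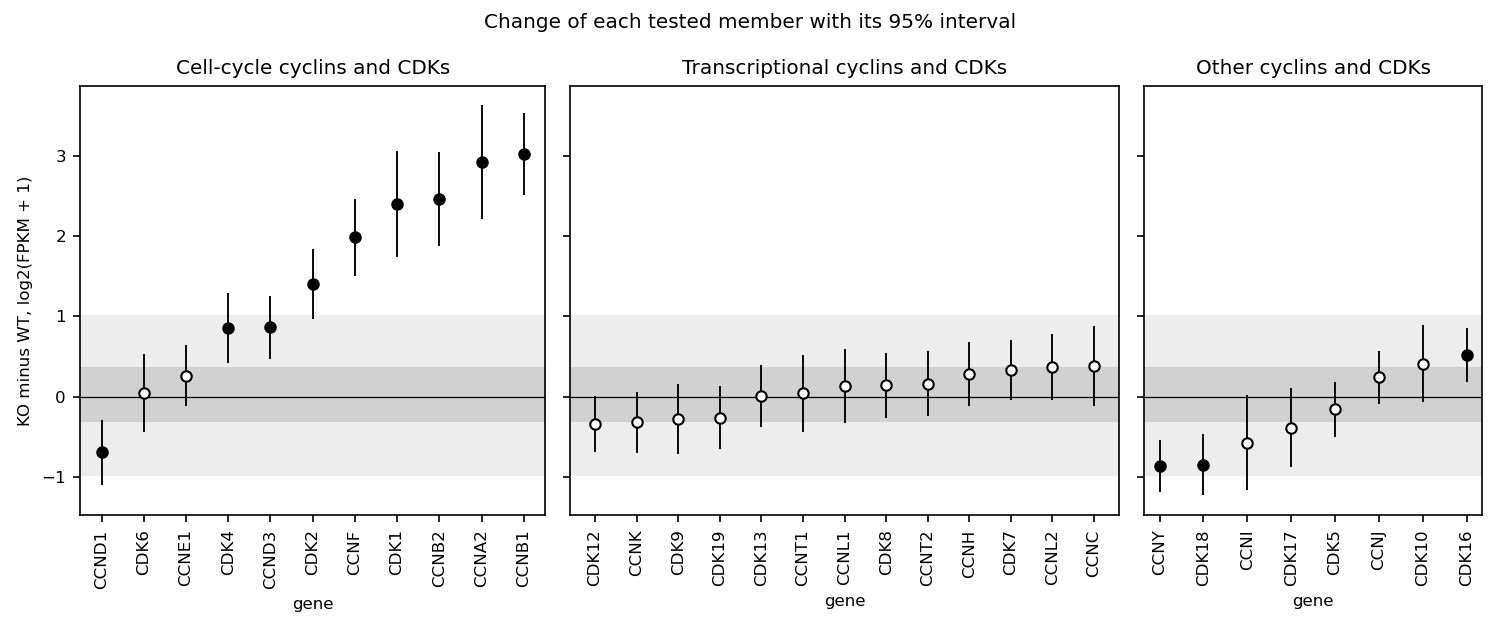
Log2 change (KO minus WT, on the log2(FPKM + 1) scale) of the 32 tested members with the 95% interval of the limma fit, by group; filled points passed the adjusted p threshold, and the grey bands run from the 5% to the 95% point (light) and from the 25% to the 75% point (dark) of all genes tested. Cell-cycle members spread from -0.69 to 3.02, while the transcriptional members sit between -0.34 and 0.39.

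Of the 9 other members, 8 passed the filter, and of these 1 rose, 2 fell and 5 were not called, where 23.3% of all genes tested were called. All 8 had groups that did not overlap, 3 with KO above and 5 with KO below, as did 65.7% of all genes tested. Cyclin Y, from CCNY, is a membrane-tethered cyclin known to bind CDK14 and CDK16, kinases of a subfamily that also holds CDK17 and CDK18. CCNY (ENSG00000108100, chr10:35247025-35572669) was at 27.7 and 28.9 FPKM in WT and at 15.5 and 14.7 FPKM in KO, 1.87-fold lower (log2 change -0.86, SE 0.13, limma adjusted p = 0.0115). The kinases of that subfamily did not share a direction. CDK18 (ENSG00000117266, chr1:205504595-205532793) was at 5.95 and 4.86 FPKM in WT and at 2.72 and 2.39 FPKM in KO, 2.12-fold lower (log2 change -0.85, limma adjusted p = 0.0173). CDK16 (ENSG00000102225, chrX:47217860-47229997) was at 15.3 and 16.3 FPKM in WT and at 21.8 and 24.4 FPKM in KO, 1.46-fold higher (log2 change 0.52, limma adjusted p = 0.0466).

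CDK17 was at 6.94 and 5.54 FPKM in WT and at 5.39 and 3.77 FPKM in KO and was not called (limma adjusted p = 0.210). CDK14 had 10 reads in all. The call of CDK16 was lost when any 1 library was left out (limma adjusted p 0.0566 to 0.300) and with trimmed mean scaling (0.0556). CCNY missed the threshold without WT replicate 1 (0.0829) or WT replicate 2 (0.0892), and CDK18 likewise (0.127 and 0.0554).

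CCNI, an atypical cyclin, was the most abundant of the other members, at 65.6 and 52.8 FPKM in WT and at 48.1 and 32.0 FPKM in KO. Its log2 change of -0.57 was not called (95% interval -1.16 to 0.02, limma adjusted p = 0.137), but passed without KO replicate 1 (0.0494). CDK5, a kinase best known in neurons, was at 8.73 and 9.88 FPKM in WT and at 7.95 and 8.56 FPKM in KO (limma adjusted p = 0.456). CDK5 shares 11.3% of its exonic bases with SLC4A2 on the opposite strand. SLC4A2 was at 33.3 and 36.1 FPKM in WT and at 39.5 and 50.3 FPKM in KO. CDK10 was at 4.43 and 4.99 FPKM in WT and at 5.45 and 7.90 FPKM in KO (limma adjusted p = 0.179). CCNJ was at 3.50 and 3.28 FPKM in WT and at 4.34 and 4.05 FPKM in KO (limma adjusted p = 0.234).

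Genes that act on the cyclin-CDK pairs were read from 6 lists, whose counts stand against 12.1% higher and 11.1% lower over all genes tested. The first, CDK inhibitors, had 5 of 7 genes tested, with 2 higher and 1 lower. CDKN1A, the p53-induced inhibitor of CDK2, was at 472 and 469 FPKM in WT and at 39.8 and 46.8 FPKM in KO, 10.9-fold lower (log2 change -3.42, limma adjusted p = 0.00154). Inhibitors of CDK4 and CDK6 went the other way: CDKN2C rose 4.30-fold, from 2.58 ± 1.17 to 11.1 ± 2.43 FPKM. CDKN2D rose 2.20-fold, from 1.50 ± 0.0597 to 3.30 ± 0.960 FPKM, a call lost without WT replicate 1, WT replicate 2 or KO replicate 2 (limma adjusted p 0.168, 0.138 and 0.103) and with voom (0.0505). The INK4 genes CDKN2A and CDKN2B were at 0 reads throughout, which allows up to 0.042 and 0.045 FPKM at 3 reads, for counting error only.

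Regulators that phosphorylate, dephosphorylate or bind CDKs had 9 of 9 genes tested, 8 higher and 0 lower, with a median log2 change of 1.01. CDKN3, a phosphatase of the CDK T-loop, rose 9.25-fold, from 1.79 and 2.89 FPKM to 20.1 and 23.2 FPKM. CDC25C, the phosphatase that switches CDK1 on, rose from 0.197 and 0.329 FPKM to 5.23 and 4.22 FPKM, and PKMYT1, a kinase that switches it off, rose from 1.25 and 2.28 FPKM to 6.49 and 8.37 FPKM. CDC25B, the most abundant CDC25 phosphatase, was at 106 and 98.1 FPKM in WT and at 77.0 and 72.2 FPKM in KO; it was not called by limma (adjusted p = 0.0801) and was called lower by voom (0.0332). CKS2, a small CDK-binding subunit, rose 4.37-fold, from 27.6 and 34.7 FPKM to 119 and 154 FPKM. CDC25C passed the filter through its KO libraries. The number of genes called higher on this list was 4 without WT replicate 1 and 5 without WT replicate 2.

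The list of RB-family, E2F and DREAM genes had 18 of 19 tested, 6 higher and 1 lower, with a median log2 change of 0.50. Voom called 9 higher and 1 lower, where it called 29.1% of all genes. Without WT replicate 1 limma called 3 higher, and the 1 lower call, E2F6, was lost without WT replicate 1, WT replicate 2 or KO replicate 2. MYBL2, the B-MYB factor of mitotic gene expression, rose 3.70-fold, from 8.27 and 16.5 FPKM to 44.0 and 47.6 FPKM. FOXM1, its partner factor, rose 3.02-fold, a call lost without WT replicate 1 (limma adjusted p = 0.0605) or KO replicate 1 (0.0614). RBL1, the pocket protein p107, rose 2.88-fold. E2F8, a repressor E2F that passed the filter through its KO libraries, was 5.99-fold higher, with WT at only 0.225 and 0.516 FPKM. The fold of E2F8 was 4.30 without WT replicate 1 and 9.86 without WT replicate 2. Of 8 genes for ubiquitin ligases of cyclins, 2 were higher and 0 lower. CDC20, the mitotic activator of the anaphase-promoting complex, rose from 3.15 and 6.26 FPKM to 43.1 and 51.1 FPKM, and SKP2 from 2.40 and 2.24 FPKM to 7.41 and 6.54 FPKM.

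Partners of the transcriptional kinases in TFIIH, the Mediator kinase module and P-TEFb had 16 of 19 genes tested, 1 higher and 1 lower, with a median log2 change of 0.07. MNAT1, a further TFIIH subunit, was instead counted among the CDK phosphorylation and binding regulators. It was 1.54-fold higher (limma adjusted p = 0.0390), a call lost when any 1 library was left out. Over all genes tested, 23.3% were called. At an unadjusted p under 0.05, 5 of the 16 passed, against 38.9% of all genes tested. Voom on recovered reads called 2 higher and 1 lower, where it called 29.1% of all genes. MED12, the Mediator subunit that activates CDK8 with cyclin C, was 1.71-fold higher (limma adjusted p = 0.0212). MEPCE, which caps the 7SK RNA that holds P-TEFb inactive, was 1.88-fold lower, from 21.6 and 22.6 FPKM to 10.4 and 13.2 FPKM (limma adjusted p = 0.0179). Each of the 2 calls was lost without WT replicate 1 (0.171 for MED12, 0.101 for MEPCE) or WT replicate 2 (0.127 and 0.106), and MED12 also without KO replicate 1 (0.0582).

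Further cyclins and CDKs outside the 36 had 10 of 15 tested, 0 higher and 1 lower by limma. At an unadjusted p under 0.05, 4 of the 10 passed, close to the 38.9% of all genes tested, and voom on recovered reads called 1 higher and 2 lower, where it called 29.1% of all genes. The gene that fell was CCNJL, from 6.04 and 6.17 FPKM to 2.99 and 2.93 FPKM, 2.06-fold, a call lost without either WT library (limma adjusted p 0.0820 at most). CCNG1, a p53 target, was the most abundant of them. Its mean was 25.6 ± 4.78 FPKM in the WT libraries and 31.7 ± 7.12 FPKM in the KO libraries, and it was not called (limma adjusted p = 0.377). CDK11B, which shares sequence with CDK11A and is uncertain for that reason, was at 9.05 and 9.73 FPKM in WT and at 10.4 and 14.8 FPKM in KO.

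**Figure D5:**
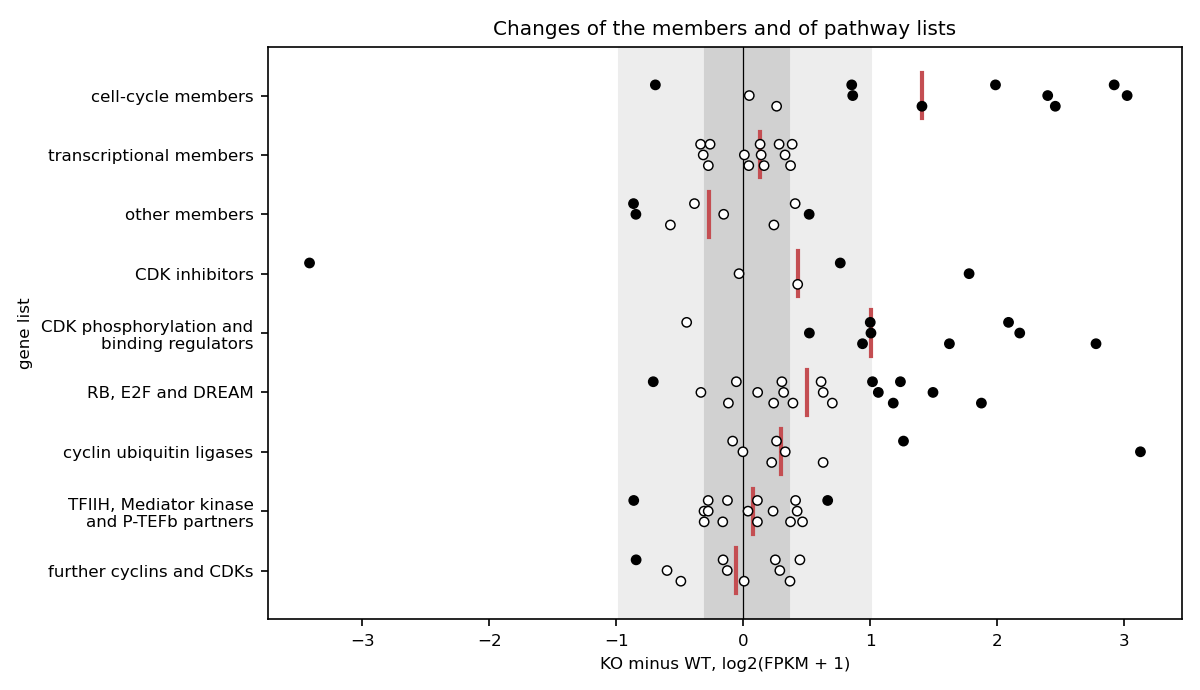
Log2 change (KO minus WT, log2(FPKM + 1) scale) of each tested gene of the 3 member groups and the 6 lists of related genes, 1 point a gene, filled where called, with a red bar for the median of each list and grey bands for the 5% to 95% and 25% to 75% range of all genes tested. The regulators that phosphorylate or bind CDKs (median 1.01) lie nearest the cell-cycle members (median 1.41), and the partners of the transcriptional kinases (median 0.07) lie nearest the transcriptional members (median 0.13).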

How the data were processed

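The sources used here do not give the counting tool or its strand setting. Reads were aligned with HISAT2 2.0.5, per the submitters' processing notes, which name the builds hg38 and mm10. The deposited values were FPKM per gene and library, made by the authors, and all 58735 gene positions equalled those of GENCODE release 29 on GRCh38. FPKM times gene length gave whole multiples of 1 step for 100% of values (tolerance 0.01), which recovers whole reads: 17715774 and 16173899 in the WT libraries, 17699349 and 16622382 in the KO libraries. The mitochondrial share was 9.66% and 12.7% in WT and 9.34% and 9.71% in KO. Floors are 3 reads per library and cover counting error only.

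Values were tested as log2(FPKM + 1) with limma 3.58.1 in R 4.3.3, without a replicate block and with an intensity trend in the prior (residual df 2, prior df 3.54), over 14100 genes with at least 1 FPKM in at least 2 libraries. Calls needed a Benjamini-Hochberg adjusted p under 0.05 over all of them. A fold is the ratio of the group means in FPKM, and the log2 scale understates changes of weakly expressed genes. The script was tested on simulated data. The members and lists were chosen with earlier results of these data known. All members are reported, and of each further list up to 4 genes past the threshold by size of log2 change. With fewer than 2 of those, the most abundant ones are reported with any called gene. CDC25B, E2F6, MNAT1, CDKN2A and CDKN2B are named besides. Promoter strings come from RefSeq windows on GRCh38.p14, and no protein sequence is shown. Alternatives were pseudocounts of 0.1 and 0.5, no filter, quantile and trimmed mean scaling, a constant prior, a replicate block and each library left out. Limma voom on recovered reads and scaling by their total were added after seeing the data.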

Additional observations from a re-analysis of the deposited data

How the results depend on the processing

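Of the 12 called members, all stayed called with pseudocounts of 0.1 and 0.5, the replicate block and voom. CDK16 alone was lost with quantile or trimmed mean scaling, a constant prior or scaling by total reads, which leaves 0 risen members among the others. With no filter on low values, which tests many more genes near 0, 183 genes rose and 193 fell over all genes, and 1 cell-cycle member rose (CCNB1), with 0 fallen. Among the others 0 rose and 0 fell, and among RB, E2F and DREAM genes 0 and 0. Leaving out 1 library gave 505 to 1321 genes risen and 537 to 1260 fallen, 6 to 8 cell-cycle members risen and 0 fallen, and 0 others risen with 0 to 3 fallen. Without WT replicate 1 or WT replicate 2, CCND1, CCND3, CDK4, CCNY, CDK16 and CDK18 were lost. Replicate numbers are shared by the groups, but nothing says that they mark a batch, and with 2 pairs the correlation of same-numbered deviations (0.411) does not settle it. With the replicate block 2968 genes rose and 2577 fell, and 1 transcriptional member rose (CCNC). The block left 1 risen and 4 fallen among the others, with CCNI and CDK17 added, and gave 4 higher among partners of the transcriptional kinases, 9 higher among RB, E2F and DREAM genes and 1 lower among CDK phosphorylation and binding regulators. The sign turned only for uncalled genes. Leaving out 1 library gave log2 changes of -0.19 to 0.28 for CDK6, -0.029 to 0.29 for CCNL1, -0.17 to 0.26 for CCNT1, -0.012 to 0.29 for CDK8 and -0.10 to 0.11 for CDK13. CDK13 was also at -0.028 with quantile scaling or scaling by total reads, -0.016 with trimmed mean scaling and -0.018 with voom, and CCNT1 at -0.000414 with scaling by total reads. The median log2 change of the transcriptional members was 0.26 without WT replicate 1, -0.03 without WT replicate 2 and -0.02 without KO replicate 1. The cause of these shifts was not tested. Depth limits CCNA1, CCND2 and CDK14, which had 10 reads or fewer in all.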
